A study of Mus musculus with 6 samples.

Results

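Transforming growth factor beta (TGF-beta) is a secreted cytokine that is made in a latent form. The active ligand binds the type II receptor TGFBR2, which recruits and phosphorylates the type I receptor TGFBR1, and this kinase then phosphorylates SMAD2 and SMAD3. These enter the nucleus with SMAD4 and act on target genes, among them genes of their own inhibitors such as Smad7 and Skil. In innate lymphoid cells the pathway is known for shaping tissue residency and the balance between conventional natural killer cells and type 1 innate lymphoid cells (ILC1).

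The 10 genes described here are the ligand gene Tgfb1, the receptor genes Tgfbr1, Tgfbr2 and Tgfbr3, the transducers Smad2, Smad3 and Smad4, and the inhibitors Smad7, Ski and Skil. They were taken by symbol from the deposited count table of 24091 genes, where all 10 are present, and all 10 passed the filter on low counts, which left 12469 genes to test. RNA was sequenced from ILC1 of the liver of C57BL/6 mice, a tissue-resident lymphocyte, at day 14. The AML group of 3 libraries came from mice given C1498 cells by the intravenous route, a mouse line used as a transplantable model of acute myeloid leukaemia, and the healthy group of 3 libraries from mice without these cells. The labels give neither genotype differences, nor the gate used to isolate the cells, nor whether a library came from 1 animal or a pool, so p-values reflect how far these libraries spread, and that spread may be technical.

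Totals ran from 45135093 to 51284691 reads per library, and the 10 genes together took 0.108% to 0.127% of the reads. The ILC1 label was set beside 8 marker genes, which were all detected. They summed to 5650 to 5840 CPM, reads scaled to a common library size, in healthy and 5330 to 6050 CPM in the AML libraries. The sums were 122 to 145 and 110 to 144 CPM for 6 conventional natural killer cell genes, mostly Itgam at 72.7 to 109 CPM over the 6 libraries. Ncr1 and Klrb1c were the largest of the 8, at 1458 to 1813 and 1252 to 1737 CPM over the 6 libraries. Cxcr6 was lower and Ncr1 higher in every AML library, and the groups overlapped for the others. Sums over different genes do not give the share of either cell type. Detection of the 8 genes alone does not tell ILC1 from conventional natural killer cells. Genes of other cell types were lower in sum and some moved with the groups. The 7 T cell genes found in the table summed to 1370 to 1690 CPM in the healthy and 979 to 1350 CPM in the AML libraries, nearly all of it Cd3g at 1317 to 1646 and 951 to 1293 CPM. Cd3g was lower in every AML library, the direction also seen for Tgfbr2, Smad3 and Smad7, while the groups overlapped for the other 6, with Cd4 at 2.52 to 7.71 CPM. The 10 Kupffer cell and macrophage genes summed to 31.8 to 108 CPM in the healthy and 136 to 212 CPM in the AML libraries, with Marco at 0 in 4 of the 6. The 6 monocyte and neutrophil genes summed to 35.5 to 471 CPM in the healthy libraries, the highest being healthy 1, and to 449 to 592 CPM in the AML libraries, with Ly6g at 0 throughout. The 6 dendritic cell genes summed to 834 to 863 CPM in the healthy and 1020 to 1130 CPM in the AML libraries. Most of that sum was Itgax, whose groups overlapped. Cd74, H2-Aa and Siglech were higher in every AML library, and Siglech had 0 reads in every healthy library. The part of these cells in the levels of the 10 genes was not tested.

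No gene of the 10 differed between the groups at the threshold, an adjusted p of 0.05 over all genes in the quasi-likelihood test of edgeR, where 0% of all genes tested passed. DESeq2 also called 0 of the 10, where it called 1.15% of all genes, and limma-voom called 0 of the 10 and 0 of all genes. At an unadjusted p below 0.05 there were 2 of the 10, Smad7 and Tgfbr3, where 8.84% of all genes tested reached that level. Of these, Tgfbr3 passed the filter on low counts through the 3 AML libraries and healthy 1 alone. The groups did not overlap for Tgfbr2, Smad3 and Smad7, with every AML library below every healthy library. That is 3 of 10, where 7.34% of all genes tested were separated in this direction and 15.5% in either direction, and 0 of the 10 were separated in the upward direction, where 8.2% were. These counts used TMM size factors, which correct for library composition. With libraries scaled by total reads alone, a choice made after seeing the data, only Smad7 of the 10 was separated downward, where 3.87% of all genes were, and Ski was separated upward, where 12.1% were. The median log2 fold change, AML minus healthy, was 0.03 over the 10 genes and 0.01 over all genes tested. In bulk libraries, fewer cells of a type and less RNA per cell cannot be told apart.

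Scaled further to gene length (RPKM), the type II receptor gene stood highest. The level of Tgfbr2 was 65.1 ± 1.74 RPKM in healthy and 59.8 ± 2.88 RPKM in the AML libraries (SD, n = 3 each), at the 90.1st percentile of the genes tested. Smad4 and Tgfb1 followed at 41.8 and 41.1 RPKM over all 6 libraries and did not separate, since Smad4 was higher in 5 of 6 libraries. Ski and Smad3 came next at 26.1 and 24.2 RPKM, with Ski higher in 4 of 6. Tgfbr1 and Smad7 stood at 17.4 and 15.1 RPKM, with Tgfbr1 higher in 5 of 6, and Smad2 and Skil at 10.8 and 9.76 RPKM, with Smad2 higher in 5 of 6. Between these pairs each step in the order held in 6 of 6 libraries. Of the 10, the co-receptor gene Tgfbr3 alone was below the middle of the genes tested, at 0.110 RPKM or the 3.48th percentile.

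Tgfb1 encodes the ligand TGF-beta 1 (mm10 chromosome 7, 25687002 to 25705077, plus strand). Its level was 86.3, 90.5 and 86.6 CPM in healthy 1, 2 and 3 and 103, 89.4 and 79.0 CPM in AML 1, 2 and 3. The AML libraries lay on both sides of the healthy ones, with AML 1 highest and AML 3 lowest of the 6. The log2 fold change was 0.04 ± 0.10 (SE) with a 95% interval of -0.20 to 0.28 and an adjusted p of 0.906, and it was -0.060 without AML 1.

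Tgfbr2, the ligand-binding receptor (chromosome 9, 116087695 to 116175363, minus strand), measured 318, 302 and 314 CPM in the healthy and 296, 292 and 270 CPM in the AML libraries. Every AML library was below the lowest healthy one, by a narrow margin for AML 1 and AML 2. By total reads alone the separation was lost, with AML 1 at 293.9 and AML 2 at 297.2 against 293.8 CPM in healthy 2. The fit gave a log2 fold change of -0.12 ± 0.07, adjusted p 0.620, and the 95% interval of the fold ran from 0.821 to 1.03. Tgfbr1, the kinase that it recruits (chromosome 4, 47353222 to 47414924, plus strand), measured 91.2, 108 and 109 CPM in the healthy and 113, 107 and 99.9 CPM in the AML libraries. These groups overlapped, and the lowest level was that of healthy 1. The log2 fold change of Tgfbr1 was 0.06 ± 0.09 with a 95% interval of -0.16 to 0.27 and an adjusted p of 0.850, and it was -0.023 without healthy 1.

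Within a library, the ratio of Tgfbr1 to Tgfbr2 does not depend on how libraries are scaled to each other. It was 0.228, 0.283 and 0.274 in healthy and 0.303, 0.292 and 0.294 in AML libraries, in RPKM. All AML values lay above all healthy values, with means of 0.296 ± 0.00580 against 0.262 ± 0.0295 (SD, n = 3 each). The exact permutation test (two-sided) gave p = 0.1, the smallest that 3 against 3 can give, or 0.333 adjusted over the 5 ratios computed. The log2 difference was 0.18, and it was 0.09 without healthy 1.

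**Figure D1:**
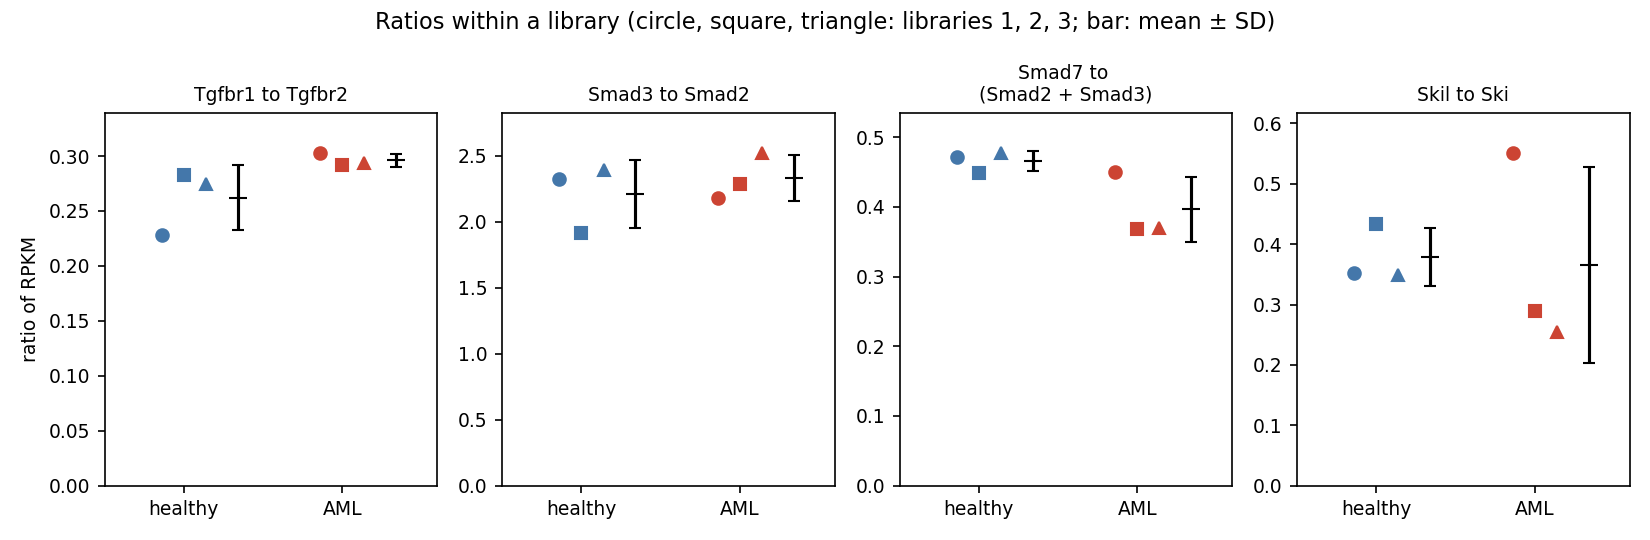
Ratios of RPKM within each library for 4 pairs of genes, healthy libraries in blue and AML libraries in red, each y axis starting at 0. Points are single libraries and black bars the mean ± SD of 3. The ratio of Tgfbr1 to Tgfbr2 is the only one of the 4 in which the groups do not overlap.

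The stretch of 250 bases upstream of the annotated start is shown for Tgfbr2 and Smad3, whose levels followed each other across the 6 libraries (r = 0.933), and for Tgfbr1, the partner receptor, whose level did not follow that of Tgfbr2 (r = -0.133). RefSeq windows on GRCm38.p6, which is mm10, matched 5 of the 10 symbols, which leaves Skil, Smad2, Smad4, Smad7 and Tgfbr3 named only. Both strands were searched for CAGAC, the SMAD box that SMAD proteins are known to contact. A second search used GGCGC, a GC-rich element also known from SMAD contacts, whose letters do not occur within the box. Of 32851 such windows in RefSeq, 42.2% held the SMAD box and 32.0% the GC-rich element, so a match to either is common. Capitals mark the matches, which are descriptions of letters and not of binding.
Tgfbr2, chr9:116175364-116175613, minus strand: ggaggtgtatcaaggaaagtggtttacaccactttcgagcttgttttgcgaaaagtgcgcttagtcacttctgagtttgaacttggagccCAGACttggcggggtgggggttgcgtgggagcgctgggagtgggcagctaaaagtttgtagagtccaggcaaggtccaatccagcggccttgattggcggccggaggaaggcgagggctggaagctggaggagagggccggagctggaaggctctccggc
Smad3, chr9:63757995-63758244, minus strand: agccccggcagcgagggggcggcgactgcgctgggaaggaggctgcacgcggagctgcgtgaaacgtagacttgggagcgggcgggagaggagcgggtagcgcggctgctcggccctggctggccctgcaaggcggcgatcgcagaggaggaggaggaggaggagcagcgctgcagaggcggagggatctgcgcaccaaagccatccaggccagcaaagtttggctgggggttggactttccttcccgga
Tgfbr1, chr4:47352972-47353221, plus strand: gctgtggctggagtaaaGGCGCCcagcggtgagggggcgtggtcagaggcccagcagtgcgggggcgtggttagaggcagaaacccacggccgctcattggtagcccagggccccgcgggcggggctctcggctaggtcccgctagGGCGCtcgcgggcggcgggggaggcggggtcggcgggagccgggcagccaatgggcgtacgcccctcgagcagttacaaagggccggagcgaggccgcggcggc
The Tgfbr2 window held 1 SMAD box and no GC-rich element. The Smad3 window held neither, and the Tgfbr1 window held 3 matches to the GC-rich element, a pair of them overlapping on opposite strands. RefSeq also lists a later start for Tgfbr1, whose window, not shown, held 1 SMAD box. The window of Ski held 7 matches to that element and that of Tgfb1 held 1, and neither held the box.

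Tgfbr3 encodes betaglycan, a co-receptor that presents the ligand (chromosome 5, 107106570 to 107289595, minus strand). It had 23, 6 and 1 reads in healthy and 84, 19 and 60 reads in AML libraries, or 0.466, 0.121 and 0.0208 CPM against 1.80, 0.364 and 1.26 CPM. AML 1 and AML 3 were the highest, and AML 2 lay below healthy 1. It passed the filter on low counts through the 3 AML libraries and healthy 1 alone. Its log2 fold change of 2.48 ± 1.02 had a 95% interval of 0.11 to 4.84, with an unadjusted p of 0.0422 and an adjusted p of 0.553 (edgeR), where 5.08% of all genes were higher at an unadjusted p below 0.05. Siglech, which marks plasmacytoid dendritic cells, followed the same order over the AML libraries, at 3.25, 0.804 and 2.61 CPM. Cd74, the invariant chain of MHC class II, measured 105, 51.9 and 65.1 CPM in the healthy and 341, 194 and 359 CPM in the AML libraries. Over the 6 libraries, which share the AML and healthy groups, Pearson's r of log2 CPM with Tgfbr3 was 0.91 for Siglech, 0.92 for Cd74 and 0.84 for H2-Aa. It was lower for the other dendritic cell genes, with 0.53 for Flt3, 0.15 for Xcr1 and -0.80 for Itgax. Genes of other myeloid cells followed it as well, such as Adgre1 at 0.87, Csf1r at 0.86 and Lyz2 at 0.76, and the 10 Kupffer cell and macrophage genes ran from -0.24 to 0.87. The part of dendritic or other myeloid cells in the Tgfbr3 values was not tested.

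**Figure D2:**
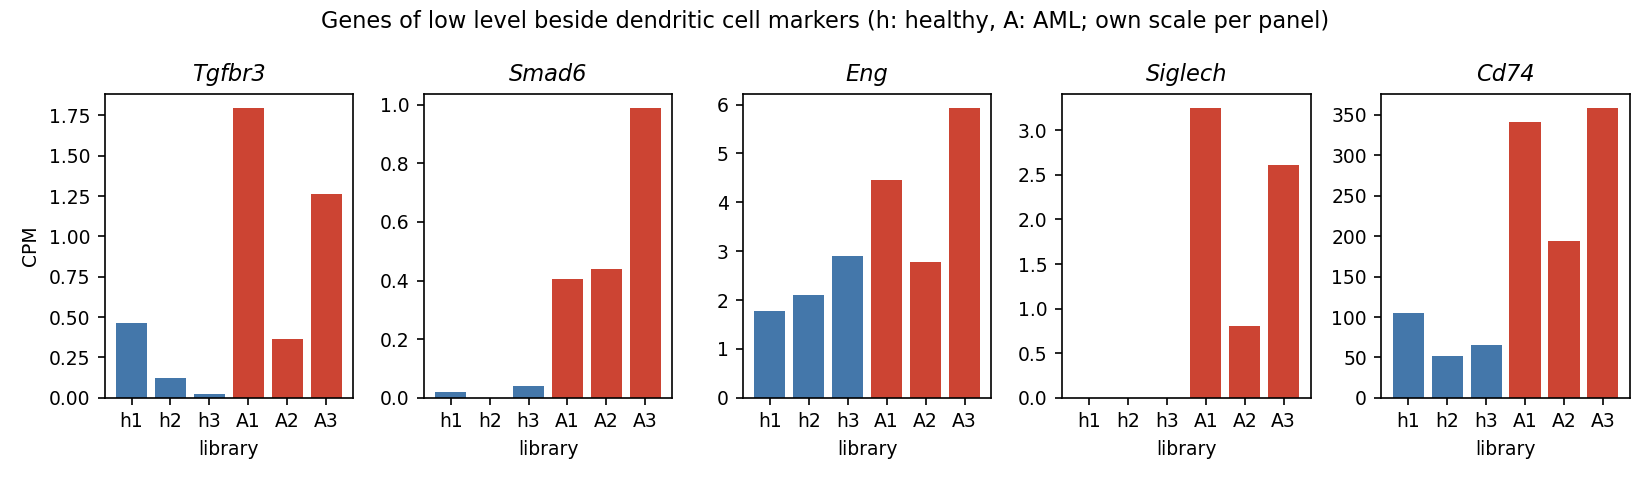
Level in CPM of Tgfbr3 and of the pathway genes Smad6 and Eng beside the dendritic cell markers Siglech and Cd74, 1 bar per library (h, healthy in blue; A, AML in red), each panel on its own scale from 0. Tgfbr3, Siglech and Cd74 are lowest in A2 among the AML libraries, and Smad6 and Eng are highest in A3.

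Smad2 and Smad3 are the transducers that the receptor phosphorylates. Smad3 (chromosome 9, 63646767 to 63757994, minus strand) measured 127, 125 and 129 CPM in the healthy and 123, 124 and 109 CPM in the AML libraries. The gap between the groups was small for AML 1 and AML 2 and wider for AML 3, and by total reads alone the groups overlapped, with AML 2 at 125.9 and healthy 2 at 122.0 CPM. The fit gave a log2 fold change of -0.10 ± 0.08, an adjusted p of 0.685 and a 95% interval of -0.28 to 0.07. Smad2 (chromosome 18, 76241701 to 76311747, plus strand) measured 98.2, 118 and 96.8 CPM in the healthy and 102, 97.2 and 77.4 CPM in the AML libraries. Its groups overlapped, with a log2 fold change of -0.18 ± 0.13, an adjusted p of 0.673 and a 95% interval of -0.47 to 0.11. The ratio of Smad3 to Smad2 in RPKM was 2.21 ± 0.260 in healthy and 2.33 ± 0.175 in AML libraries (exact permutation p = 0.7, adjusted 0.8). Smad4, the shared partner (chromosome 18, 73639013 to 73703741, minus strand), measured 149, 149 and 144 CPM in the healthy and 155, 152 and 137 CPM in the AML libraries. It was the least variable of the 10 genes, with its highest library 1.13 times its lowest. The log2 fold change of Smad4 was 0.01 ± 0.07 with a 95% interval of -0.16 to 0.18 and an adjusted p of 0.973.

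Smad7 encodes the inhibitory SMAD that blocks the type I receptor and brings ubiquitin ligases to it (chromosome 18, 75367365 to 75395934, plus strand). Its level was 74.7, 74.9 and 76.1 CPM in the healthy and 70.7, 57.1 and 49.1 CPM in the AML libraries. The healthy libraries were nearly equal, with a coefficient of variation of 1.04%, and all AML libraries lay below them and spread over 18.5%. This gave a log2 fold change of -0.35 ± 0.13 with a 95% interval of -0.65 to -0.05. In edgeR's quasi-likelihood test the unadjusted p was 0.0278, rank 665 of the 12469 genes, and the adjusted p 0.519, where 3.75% of all genes were lower at an unadjusted p below 0.05. Without healthy 1 and AML 1 together, the pair left out because earlier work on these data found them apart in myeloid genes, Smad7 had a log2 fold change of -0.51 and an adjusted p of 0.0457. In that fit 1.74% of all genes were called lower and 3.54% in either direction, and the adjusted p of Smad7 ranged from 0.0457 to 0.818 over the 14 alternatives. For Smad7, AML 1 was the AML library nearest the healthy ones and healthy 1 the lowest healthy library. Leaving both out had to enlarge the fall, so that call is no support for a difference. In the authors' deposited table, which lists 9 of the 10 genes and leaves out Tgfbr3, Smad7 had the smallest adjusted p of these, 0.386, with a log2 fold change of -0.35. Of the 9769 symbols in that comparison, 74 had an adjusted p below 0.05. The ratio of Smad7 to the sum of Smad2 and Smad3 was 0.466 ± 0.0149 in healthy and 0.396 ± 0.0470 in AML libraries, with AML 1 at 0.451 above healthy 2 at 0.449 (exact permutation p = 0.2, adjusted 0.333).

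Ski and Skil encode related corepressors that hold SMAD complexes inactive, and Skil, also known as SnoN, is itself a SMAD target. Ski (chromosome 4, 155154075 to 155222535, minus strand) measured 142, 134 and 138 CPM in the healthy and 156, 147 and 137 CPM in the AML libraries. AML 1 and AML 2 were above all healthy libraries and AML 3 was among them, though by total reads alone all 3 were above. The fit gave a log2 fold change of 0.09 ± 0.07, an adjusted p of 0.708 and a 95% interval of -0.08 to 0.26. Skil (chromosome 3, 31095058 to 31122923, plus strand) measured 92.0, 106 and 88.8 CPM in the healthy and 158, 78.2 and 64.3 CPM in the AML libraries. AML 1 was the highest of the 6 and AML 2 and AML 3 were both below every healthy library. Its group means were therefore close, with a log2 fold change of 0.06 ± 0.30 and an adjusted p of 0.957, and the 95% interval of the fold was wide, from 0.641 to 1.70. Without AML 1 it was -0.43 at an adjusted p of 0.160. The ratio of Skil to Ski was 0.353, 0.433 and 0.349 in healthy and 0.551, 0.290 and 0.255 in AML libraries (exact permutation p = 0.8, adjusted 0.8).

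**Figure D3:**
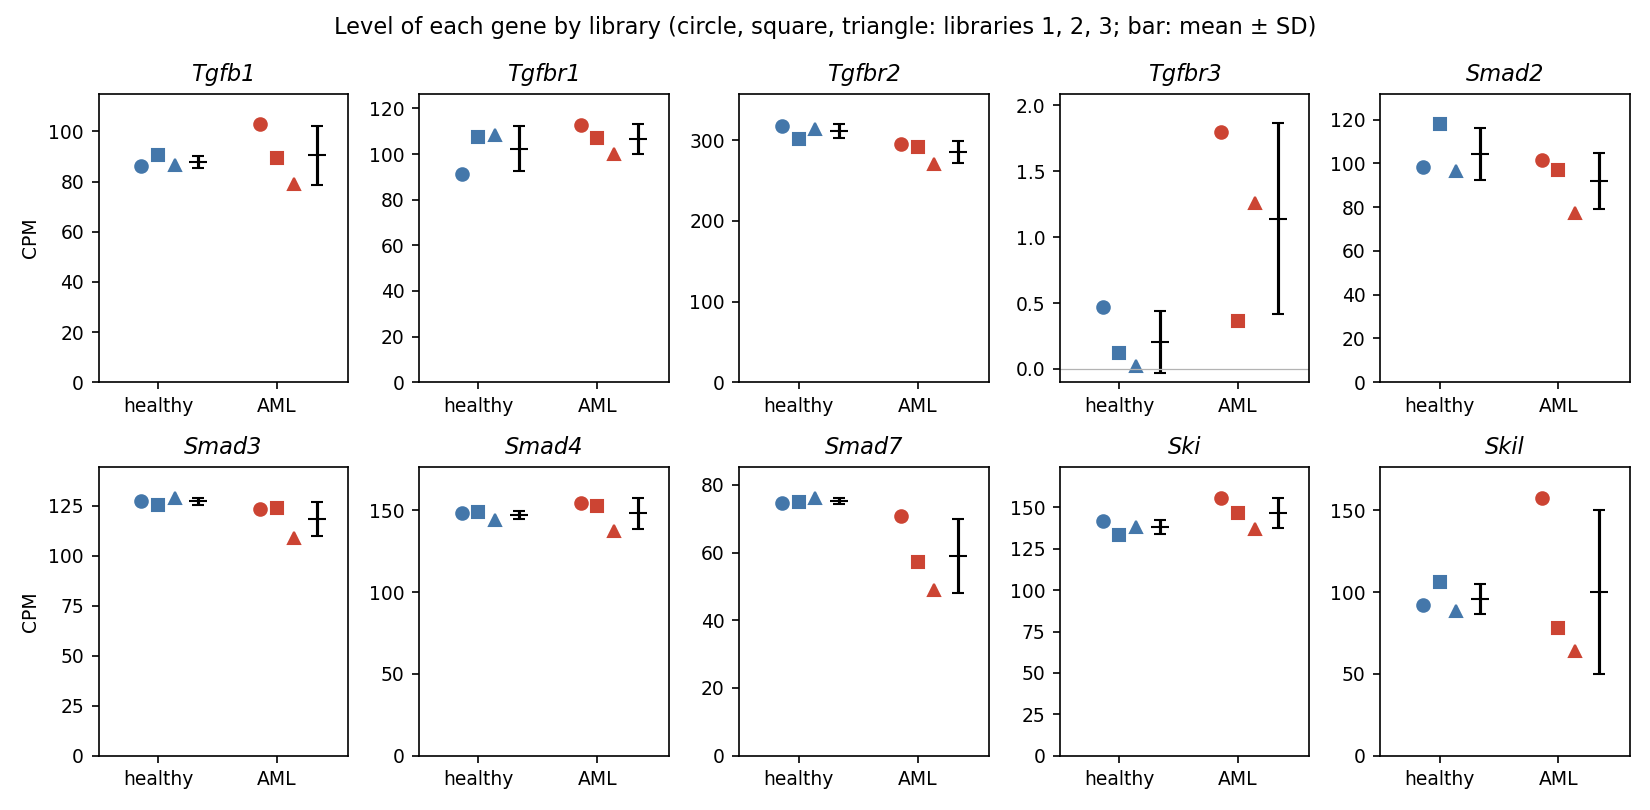
Level in CPM of the 10 genes, 1 panel per gene, healthy libraries in blue and AML libraries in red. Circles, squares and triangles are libraries 1, 2 and 3 of each group, black bars the mean ± SD, and axes start at 0 except for Tgfbr3, whose axis starts just below 0. Smad7 is tight in healthy libraries, Skil ranges from 64.3 to 158 CPM within the AML group, and Tgfbr2 and Smad3 show a small offset that does not separate the groups when libraries are scaled by total reads alone.

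**Figure D4:**
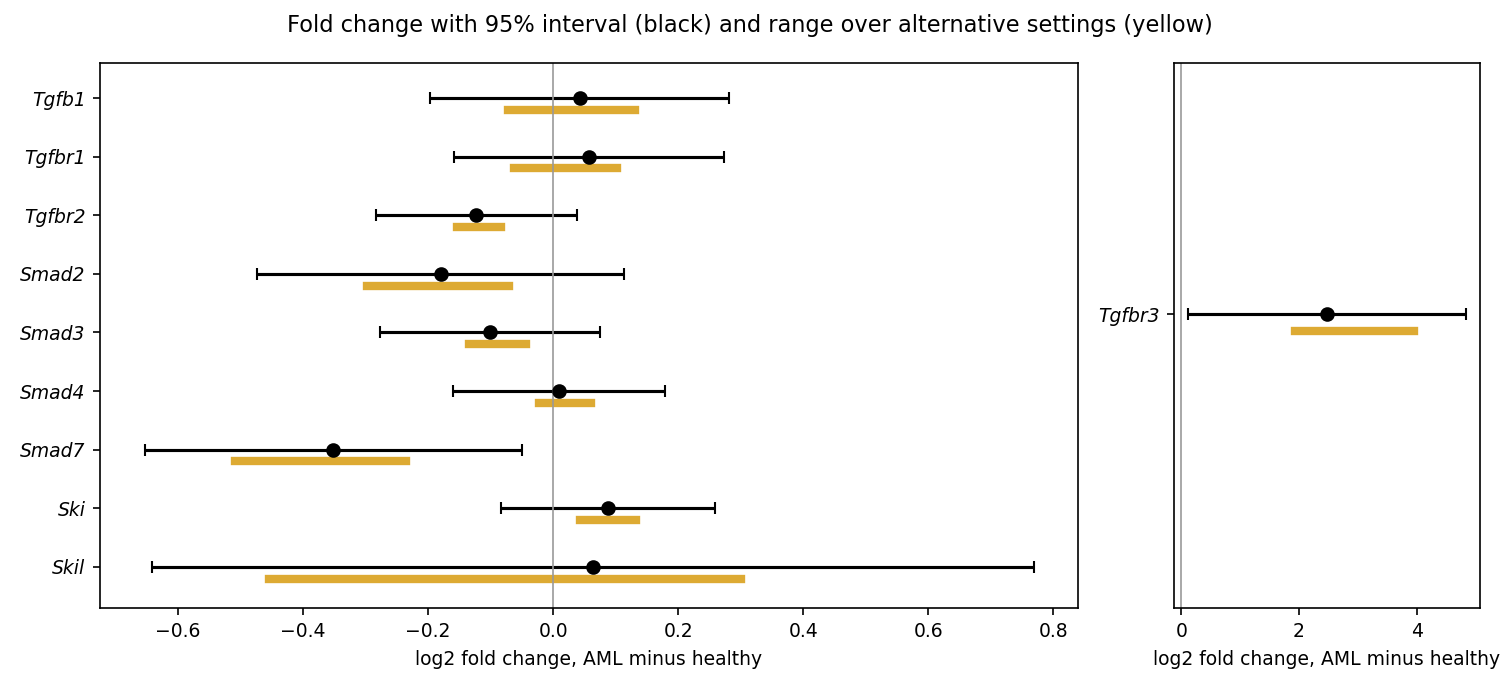
Log2 fold change, AML minus healthy, of the 10 genes, with Tgfbr3 on a wider axis. Black points and bars are the edgeR estimate with its 95% interval and yellow bars the range over the alternative settings. The intervals of Smad7 and Tgfbr3 alone do not reach 0, and neither passed after adjustment over all genes.

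Most of the 10 genes varied more among the AML libraries than among the healthy ones. The coefficient of variation was larger in AML for 8 of the 10, all but Tgfbr1 and Tgfbr3, where it was larger for 54.6% of all genes. It was larger for the same 8 without AML 1, where that held for 38.2% of all genes. Over all genes AML 2 and AML 3 were the most alike pair within a group, with a chi-square per degree of freedom of 28.0 against 38.6 to 62.3 for healthy pairs, and pairs with AML 1 stood at 86.7 and 102. AML 3 was the lowest of the 6 libraries for 7 of the 10, where it was lowest for 21.8% of all genes, and AML 1 the highest for 6 of the 10, against 19.9%. With libraries scaled by total reads alone these counts were 6 and 5, against 13.2% and 19.0% of all genes. The levels of Tgfb1 and Skil followed each other over the 6 libraries (r = 0.941), as did Tgfbr2 and Smad7 (r = 0.916). Over 8344 genes of at least 10 CPM, the levels most like that of Tgfbr2 by Pearson's r over the 6 libraries were those of Tmx1 at 0.997, Rps6ka4 at 0.995 and Selenon at 0.990.

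Of 61 other genes of the pathway, 52 could be tested, and 0 passed over all genes in the edgeR quasi-likelihood test. At an unadjusted p below 0.05, 4 were higher and 1 lower in AML, with a median log2 fold change of 0.01. Those shares were 5.08% and 3.75% over all genes, and 8.84% in either direction. DESeq2 called 1 of them, Smad6, and 1.15% of all genes. The 4 higher genes were Smad6, Smad5, Gdf15 and Eng. Smad6 passed the filter on low counts through the AML libraries alone, so it had to be higher there. Gdf15 passed it through the 3 AML libraries and healthy 1 alone. The place of these 2 in the count and the DESeq2 call of Smad6 are no support for a difference. Among 8 tested genes of ligands and latency, Nrros, which holds latent TGF-beta on myeloid cells and microglia, measured 89.5 ± 15.4 CPM in the healthy and 106 ± 13.4 CPM in the AML libraries (SD, n = 3 each), with a log2 fold change of 0.25 ± 0.14. Gdf15, a distant member of the ligand family, stayed at or below 1.24 CPM. The ligand gene Tgfb3 ranged from 3.95 to 7.19 CPM across libraries, and Tgfb2 did not exceed 0.270 CPM. Of the integrins that release the latent ligand, Itgb6 had 0 reads in all 6 libraries and Itgb8 in 5 of 6, while Itgav measured 86.0 to 111 CPM.

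Among 8 tested receptors and co-receptors, Eng, the co-receptor endoglin, measured 1.78, 2.11 and 2.91 CPM in the healthy and 4.45, 2.78 and 5.93 CPM in the AML libraries, with a log2 fold change of 0.95 ± 0.36 and an adjusted p of 0.531. Bambi, a decoy receptor without a kinase domain, measured 60.7, 59.4 and 38.0 CPM in the healthy and 49.1, 15.6 and 11.2 CPM in the AML libraries. AML 1 lay among the healthy libraries, and AML 2 and AML 3 lay well below them. With all libraries Bambi had a log2 fold change of -1.06 ± 0.51 (adjusted p 0.574, edgeR). Without AML 1 it was -1.98 at an adjusted p of 0.0146, in a fit that called 1.15% of all genes, 0.964% lower in AML, and the adjusted p ranged from 0.00367 to 0.830 over the alternatives. For Bambi, AML 1 was the AML library nearest the healthy ones, so leaving it out had to enlarge the fall. The call without AML 1 is no support for a difference.

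Of 10 tested SMADs and partners, Smad5, a transducer of the BMP branch, measured 25.4, 24.7 and 23.8 CPM in the healthy and 33.6, 27.5 and 29.3 CPM in the AML libraries. All AML values lay above all healthy values, with a log2 fold change of 0.29 ± 0.11 and an adjusted p of 0.511. Smad6, an inhibitory SMAD of that branch, had 1, 0 and 2 reads in healthy and 19, 23 and 47 reads in AML libraries. Per read sequenced the total was 31.1 times higher in AML. Its exact 95% binomial interval of 10.3 to 154 reflects counting alone, as reads without identifiers are not separate molecules. That interval pools the reads of each group and leaves out the spread between libraries. As Smad6 passed the filter through the AML libraries alone, this ratio had to be above 1 and is no support for a difference. The level of Smad6 was at most 0.988 CPM, and its highest library was AML 3. Among the AML libraries, AML 3 was also the highest for 6 of the 10 Kupffer cell and macrophage genes, among them C1qb at 38.8 CPM against 2.41 to 4.22 CPM in the healthy libraries. Csf1r, Cd68 and Marco were highest in AML 1 and Vsig4 in AML 2. Among the ILC1 genes, AML 3 was likewise the highest AML library for Itga1, Cd200r1, Il7r and Klrb1c, though not for the others. Among the dendritic cell genes it was so for Flt3, Xcr1, Cd74 and H2-Aa, though not for Siglech and Itgax. A peak in AML 3 is therefore not particular to macrophage genes. The part of macrophages in the Smad6 values was not tested. Runx3, a SMAD partner of lymphocytes, was abundant at 226 to 269 CPM, with a log2 fold change of 0.01 ± 0.08.

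All 17 genes of inhibitors and turnover were tested, and 0 reached an unadjusted p below 0.05, where 8.84% of all genes did, and 0 had groups that did not overlap, where 15.5% did. Those with the smallest p were Rnf111, the ubiquitin ligase Arkadia that degrades Ski, Skil and Smad7 proteins, with a log2 fold change of 0.21 ± 0.10, and Ppm1a, a phosphatase acting on SMAD2 and SMAD3, with -0.20 ± 0.12. The 9 genes of the branch that does not use SMADs held Map2k6, a kinase upstream of p38, at 18.4, 20.9 and 17.9 CPM in the healthy and 14.3, 13.5 and 12.4 CPM in the AML libraries. Every AML library was below every healthy one, with a log2 fold change of -0.51 ± 0.13 and an adjusted p of 0.404. Traf6, a ubiquitin ligase of the same branch, had -0.18 ± 0.09.

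Of 24 genes known to respond to TGF-beta, 22 were tested and 0 passed over all genes in the same test, with 1 higher and 2 lower at an unadjusted p below 0.05, where 5.08% and 3.75% of all genes were, and a median log2 fold change of 0.02. Id3, a transcriptional inhibitor, measured 18.5, 19.9 and 20.3 CPM in the healthy and 27.0, 25.7 and 24.9 CPM in the AML libraries, with a log2 fold change of 0.40 ± 0.10 and an adjusted p of 0.399. Nedd9, a scaffold protein, measured 879 ± 53.3 against 707 ± 77.5 CPM and Cxcr6, a chemokine receptor of liver-resident lymphocytes, 926 ± 94.9 against 743 ± 68.0 CPM (n = 3 each). For Nedd9 and Cxcr6 every AML library lay below every healthy one, with log2 fold changes of -0.31 ± 0.10 and -0.32 ± 0.10. Xcl1, a chemokine, had -0.29 ± 0.14, and Il6ra, a cytokine receptor subunit, 1.61 ± 0.70. Il6ra stood at 4.82 CPM in healthy 1 and at 0.664 and 0.976 CPM in healthy 2 and healthy 3, beside 459, 35.0 and 33.1 CPM of the monocyte gene Lyz2, and leaving out healthy 1 took it to 3.00 at an adjusted p of 0.0225, in a fit that called 0.697% of all genes, 0.627% higher in AML. For Il6ra, healthy 1 was the healthy library nearest the AML ones, so leaving it out had to raise the fold change. The call without healthy 1 is no support for a difference. Over all alternatives the adjusted p of Il6ra ranged from 0.00771 to 0.830. Itga1, which encodes CD49a and is induced by TGF-beta in liver lymphocytes, measured 365 to 401 CPM in the healthy and 371 to 452 CPM in the AML libraries.

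The contrast between AML 1 and the other AML libraries seen for Skil also appeared in other genes of these lists, which were picked after their values were seen. Tgif1, a SMAD corepressor, measured 69.8 CPM in AML 1 and 19.0 and 15.7 CPM in AML 2 and AML 3, with healthy libraries between 37.3 and 54.0 CPM. Cdkn1a, the cell cycle inhibitor p21, measured 135, 37.1 and 17.7 CPM in AML 1, 2 and 3, with healthy libraries between 83.9 and 107 CPM. Ctla4, an inhibitory receptor, measured 24.7, 3.10 and 0.357 CPM, with healthy libraries between 7.31 and 13.6 CPM. For these 3 genes, as for Skil, AML 1 was above and AML 2 and AML 3 below every healthy library. That order held for 1 of the 10 genes, for 6 of the 52 other pathway genes tested and for 3 of the 22 response genes, where it held for 3.58% of all genes. The others with it were Tgif2, Strap, Map2k3, Mapk14, Klf2 and Pmepa1. Pmepa1, a SMAD target that limits the pathway, had smaller steps, at 14.7, 7.98 and 7.93 CPM against 8.95 to 12.4 CPM. In the fit without AML 1, Tgif1 and Cdkn1a were called lower in AML, as was Bambi, where 0.964% of all genes were. Skil and Ctla4 were not called. Tgif1 and Cdkn1a were picked for AML 2 and AML 3 below every healthy library, so without AML 1 they had to be lower. Their calls are no support for a difference, and neither is that of Bambi.

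**Figure D5:**
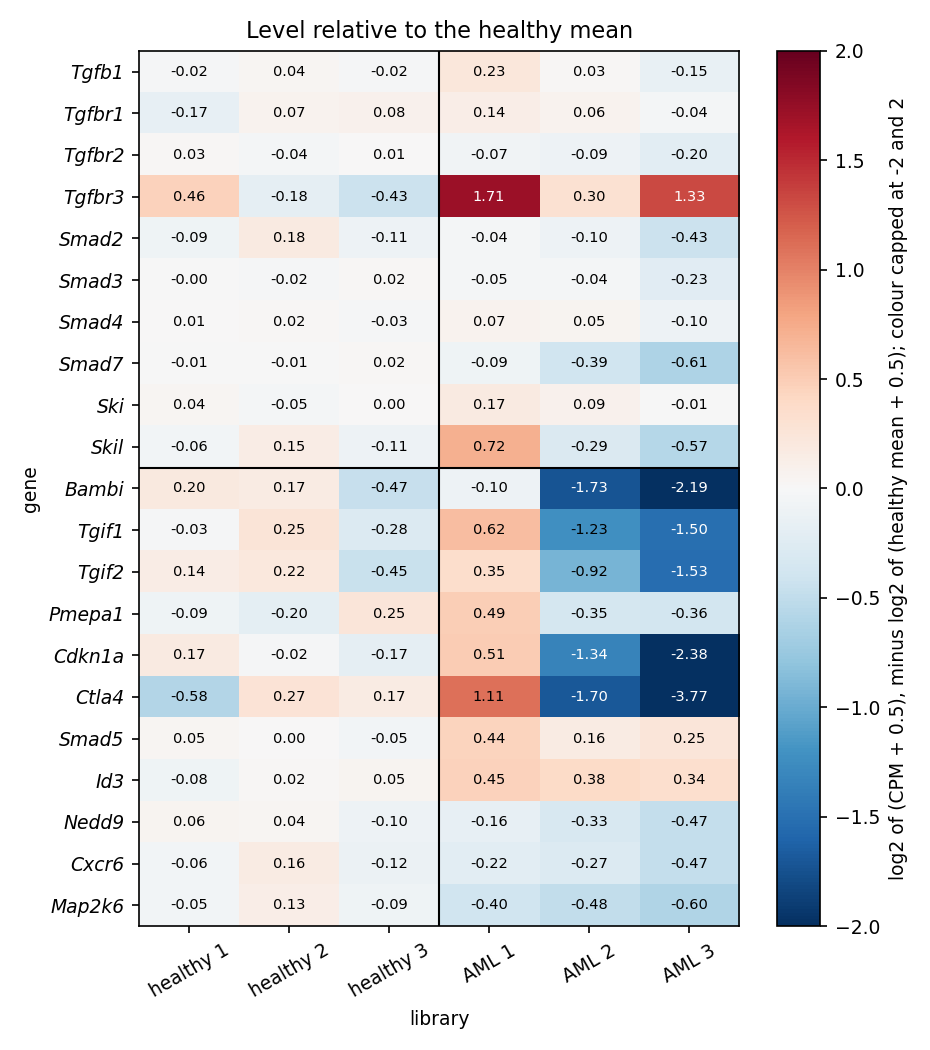
Log2 of the level (CPM plus 0.5) relative to the healthy mean, for the 10 genes above the line and 11 other pathway and response genes below it, 1 column per library, colour capped at -2 and 2 and each value printed. Tgif1, Cdkn1a, Ctla4 and Skil are positive in AML 1 and negative in AML 2 and AML 3, while Map2k6, Cxcr6 and Nedd9 are negative in all 3 AML libraries.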

How the data were processed

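The authors deposited raw read counts per gene (whole numbers) for 6 libraries and, in a table of their own comparison, log2 fold changes and adjusted p-values, per the file headers. The 6 per-library value columns of that table were not used. Tools listed in the submitters' processing notes, without roles, are the aligner STAR (2.6.0), the counter HTSeq (0.6.0), edgeR (3.28.1) and bcl2fastq (2.18.0.12), beside builds hg19 and mm10. The options used for counting were not given in the sources used here. Per the labels' protocols, RNA was amplified with a kit priming on poly(A) and libraries carry no strand. In GENCODE M21 the exons of 9 of the 10 genes overlap no other gene, and 4.54% of Tgfbr3 exonic bases lie in Gm43422 on the same strand. Positions are as the count table gives them, and gene lengths in kilobases are its own.

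Groups came from the titles and columns were matched by description. All 12469 genes passing filterByExpr (minimum count 10) were fitted with edgeR 4.0.16 in R 4.3.3 (TMM, quasi-likelihood F test, group only, two-sided, Benjamini-Hochberg). CPM uses TMM-scaled library sizes, on which 3 reads, the limit that 0 reads allow, equal 0.0574 to 0.0642 CPM. Fold changes carry the SE of the fit, and scripts were tested on simulated data. DESeq2 1.42.0 and limma 3.58.1 served as alternatives. The members and lists were chosen with earlier results of these data known, and Ccn2 was read under its older symbol Ctgf. Named genes are the 10, the 2 of each of 5 pathway lists and the 5 response genes with the smallest p. Others were named after their values were seen. No 2 libraries of a group were alike within sampling noise.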

Additional observations from a re-analysis of the deposited data

How the results depend on the processing

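The count of the 10 genes past the threshold stayed at 0 in 13 of 14 alternatives and was 1, Smad7, without healthy 1 and AML 1 together. In that fit 2 other pathway genes, 5 response genes and 444 of all genes passed. By DESeq2 1 other pathway gene and 143 of all genes passed. The count over all genes was 1 with upper-quartile size factors, 2 with no filter on low counts and 1 with the stricter filter (at least 5 CPM in 3 libraries). Leaving out each library gave 0 to 147 of all genes, 0 to 2 other pathway genes and 0 to 2 response genes, with 89 without healthy 1 and 147 without AML 1. The labels do not say whether equal replicate numbers pair the libraries. Deviations from the group means correlated at 0.133, -0.112 and 0.225 for equal numbers and at -0.308 to 0.175 for unequal ones. So few values cannot show whether libraries are paired. With the replicate number as a block 0 of the 10 and 0 of all genes passed. Of 346 values of single named genes, 328 kept their direction and side of the threshold, 12 changed sign and 6 gained a call. The sign of Skil turned with limma-voom (-0.049), with the replicate block (-0.047) and without healthy 1 and AML 1 (-0.45), and left-out libraries took it from -0.43 (without AML 1) to 0.30. Smad4 ran from -0.023 to 0.061 over left-out libraries, turning without healthy 3, AML 1 or AML 2, and was -0.017 without both. Tgfb1 ran from -0.060 (without AML 1) to 0.13, and was -0.073 without both, and Tgfbr1 from -0.023 (without healthy 1) to 0.10, and was -0.062 without both. The log2 difference of the ratio of Smad3 to Smad2, 0.08, was -0.021 to 0.14 over left-out libraries, and that of Skil to Ski, -0.13, was -0.47 to 0.086. By total reads alone, a scaling chosen after seeing the data, 2 of the 10 genes had groups that did not overlap, Smad7 lower and Ski higher, in place of 3 lower. The cause of these changes was not tested. Low read counts limit the precision of Tgfbr3 and Smad6.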
